A study of Mus musculus with 6 samples.

Results

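The 9 genes described here encode enzymes that write, copy and remove cytosine methylation, with cofactors: Dnmt1, Dnmt3a, Dnmt3b, Dnmt3l, Uhrf1, Uhrf2, Tet1, Tet2 and Tet3. They were taken by symbol from a table of 22219 genes, and all 9 were found in it and passed the filter on low values. RNA came from whole testes of day 10 mice in 6 libraries, 3 labelled control and 3 labelled cKO. In the cKO animals floxed Eif5, the gene of a translation initiation factor, was deleted in germ cells by a Cre under the Stra8 promoter, so somatic cells of the testis keep the gene. The genotype of the controls is not given, so whether they also carry floxed alleles or the Cre is unknown. Values are normalised read counts, that is, reads divided by 1 size factor per library. Fold changes compare cKO with control on the scale of log2(value + 2), and a gene was called at a limma adjusted p under 0.05 over all 17570 genes tested.

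In mammals DNMT1 copies methylation onto newly replicated DNA, guided by UHRF1, which binds hemimethylated sites. DNMT3A and DNMT3B set new methylation, helped in germ cells by the catalytically inactive DNMT3L. TET enzymes oxidise methylated cytosine, the entry to its removal. In the male germ line methylation is largely re-established before birth, and the dividing spermatogonia of the young testis then maintain it.

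Eif5 read 11964, 10551 and 11187 normalised read counts in control replicates 1 to 3 and 8548, 8982 and 9574 in cKO replicates 1 to 3 (log2 fold change -0.31, SE 0.0947, limma adjusted p = 0.024). All cKO libraries lay below all controls, although leaving out cKO replicate 1 or 2 ended the call (adjusted p = 0.133 and 0.0888). Recovered reads ran from 32555443 to 48409550 per library. Every marker of the cell types listed here was above 0 in every library. In the counts that follow, lower and higher mean called by limma, as were 10.4% and 9.63% of all genes tested. Genes of meiotic prophase were lower in 14 of 14 cases (summed level 24110 to 27818 in control, 9847 to 11288 in cKO) and genes of differentiating spermatogonia in 7 of 8 (24522 to 24764 against 11663 to 13582). Of undifferentiated spermatogonial genes 5 of 15 were higher and 1 lower (15137 to 17271 against 15870 to 17202). Both edgeR and DESeq2 called 4 of them higher and 2 lower. Among somatic markers 5 of 11 Sertoli (307771 to 440304 against 482287 to 551263), 6 of 7 Leydig (14228 to 19177 against 21921 to 26088) and 6 of 8 macrophage genes (6226 to 7933 against 8165 to 9348) were higher and 0 lower. With edgeR the numbers higher were 6 Sertoli, 6 Leydig and 4 macrophage genes, and with DESeq2 they were 7, 5 and 5. Clu had the largest part of the Sertoli sum (mean 222378 in control, 285767 in cKO) and was not called (limma adjusted p = 0.217). It read 157598 in control replicate 1 against 252501 and 257035 in control replicates 2 and 3. Peritubular myoid genes had 2 of 6 lower and 0 higher, endothelial genes 1 of 6 each way, and erythroid genes 2 of 4 higher and 0 lower (0 higher with DESeq2). The erythroid sum was 3323 to 4190 in control and 4327 to 10945 in cKO, where cKO replicate 1 stood apart, with Hbb-bs at 6901 against 2816 and 2822 in the other cKO libraries.

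Promoter windows of the 3 genes whose RNA fell in cKO, and of Dnmt3l, the gene with the fewest reads, are shown because CpG sites are the substrate of these enzymes. Each window is 300 bases, 250 before and 50 after an annotated start, from RefSeq on GRCm38.p6, with CpG sites in capitals. Where a gene has several annotated starts, the window richest in CpG is given.
Dnmt1, chr9:20952574-20952873, minus strand: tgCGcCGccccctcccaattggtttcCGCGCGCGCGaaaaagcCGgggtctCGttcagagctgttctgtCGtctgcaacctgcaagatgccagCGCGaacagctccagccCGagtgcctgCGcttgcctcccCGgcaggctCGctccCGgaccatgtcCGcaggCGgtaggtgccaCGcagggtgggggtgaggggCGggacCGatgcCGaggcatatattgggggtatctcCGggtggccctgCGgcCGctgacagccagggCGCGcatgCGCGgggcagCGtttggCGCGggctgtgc
Uhrf1, chr17:56304063-56304362, plus strand: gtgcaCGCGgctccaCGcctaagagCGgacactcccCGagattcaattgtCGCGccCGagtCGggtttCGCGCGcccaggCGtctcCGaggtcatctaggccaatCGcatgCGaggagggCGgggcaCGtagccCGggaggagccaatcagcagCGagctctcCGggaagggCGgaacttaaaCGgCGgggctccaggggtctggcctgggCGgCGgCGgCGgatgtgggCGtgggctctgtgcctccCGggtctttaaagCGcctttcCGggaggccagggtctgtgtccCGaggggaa
Dnmt3b, chr2:153649199-153649498, plus strand: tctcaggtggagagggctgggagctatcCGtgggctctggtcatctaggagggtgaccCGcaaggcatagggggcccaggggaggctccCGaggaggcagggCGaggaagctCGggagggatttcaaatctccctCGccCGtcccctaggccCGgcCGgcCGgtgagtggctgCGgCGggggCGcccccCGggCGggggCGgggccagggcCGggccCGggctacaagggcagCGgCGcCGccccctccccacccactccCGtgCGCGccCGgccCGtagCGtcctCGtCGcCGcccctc
Dnmt3l, chr10:78042037-78042336, plus strand: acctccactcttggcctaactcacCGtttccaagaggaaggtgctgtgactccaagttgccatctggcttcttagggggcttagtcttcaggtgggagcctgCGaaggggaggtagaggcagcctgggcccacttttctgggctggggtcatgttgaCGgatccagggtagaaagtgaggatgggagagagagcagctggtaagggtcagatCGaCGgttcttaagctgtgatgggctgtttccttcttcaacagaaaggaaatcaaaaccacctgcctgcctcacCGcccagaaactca

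The windows of Dnmt1 and Uhrf1 held 33 CpG sites each and that of Dnmt3b held 30, against 6 in Dnmt3l and a median of 7 over 32851 RefSeq windows of the same length. That median was taken over all windows, not over the richest window of each gene, so the 2 are not like measures. A high CpG number did not set the falling genes apart, since the richest windows of genes that were not called held 57 sites (Tet2), 47 (Dnmt3a), 28 (Uhrf2), 22 (Tet3) and 17 (Tet1). The other 2 Dnmt1 windows held 12 and 2 sites, and the deposited counts per gene do not tell which start was used. Of 4 motifs searched on both strands over the 16 windows of the 9 genes, the E2F motif TTTCCCGC was found in 0 and TTTGGCGC in 1, the Dnmt1 window above, whose strand carries it as tttggCGC, starting 33 bases after the start site. TTTGGCGC was held by 0.514% of all windows and TTTCCCGC by 1.07%. Other forms of the E2F motif, such as TTTCGCGC, were not searched. A window without the 2 forms searched, that of Uhrf1 among them, may therefore still hold an E2F site. The STRA8 motif CNCCTCAG lay in 1 window, of Dnmt3l, and the E-box CACGTG in 2, of Dnmt3l and Dnmt3a, against 7.94% and 7.15% of all windows. The Dnmt3l window that held both motifs is another than the one shown, which held none. In it CNCCTCAG started 157 and 88 bases before the start site, and CACGTG 44 bases before it. No motif overlapped another.

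RNA for the copying machinery was lower in cKO testes. Dnmt1, the maintenance methyltransferase, read 3022, 2564 and 2563 normalised read counts in control replicates 1 to 3 and 2002, 1740 and 1465 in cKO replicates 1 to 3. Every cKO library was below every control. The mean fell from 2716 ± 265 to 1735 ± 268 (SD, n = 3 per group), to 63.9% of control, with a log2 fold change of -0.65 (SE 0.112, limma adjusted p = 0.000379). Uhrf1, which recruits DNMT1 to hemimethylated DNA, read 2841, 2425 and 1989 in the control libraries and 1436, 1667 and 1195 in those of cKO. Here too the groups did not overlap, and the lowest control was nearer to the highest cKO library than for Dnmt1. Its mean fell from 2418 ± 426 to 1433 ± 236 (SD, n = 3 per group), to 59.2% of control, the largest fall among the called members (log2 fold change -0.75, SE 0.128, limma adjusted p = 0.00035). In bulk RNA of a whole testis, fewer cells of a type and less RNA per cell cannot be told apart.

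Uhrf2, the paralogue of Uhrf1, was nearly constant over the controls at 1707, 1715 and 1702 normalised read counts. It read 1482, 1634 and 1625 in cKO. All cKO values were below all controls, but the shift was small beside that of Uhrf1 and was not called (log2 fold change -0.11, 95% interval -0.31 to 0.08, limma adjusted p = 0.436).

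The de novo methyltransferases parted. Dnmt3b read 2005, 1758 and 1545 normalised read counts in control replicates 1 to 3 and 1278, 1394 and 1235 in cKO replicates 1 to 3, again without overlap. The mean fell from 1769 ± 230 to 1302 ± 82.4 (SD, n = 3 per group), to 73.6% of control (log2 fold change -0.44, SE 0.108, limma adjusted p = 0.00727). Gm14490, which RefSeq lists as Dnmt3b-ps1 with the synonym Dnmt3c, is a close copy of Dnmt3b, so both values are uncertain where reads were shared. Its control mean was 267 ± 37.6 and its cKO mean 288 ± 18.7 (SD, n = 3 per group), and it was not called. Dnmt3a, which also encodes a de novo methyltransferase, had control values of 6143, 5269 and 4817 and cKO values of 5186, 5609 and 5380. The cKO values lay inside the control range, and the interval of the log2 fold change ran from -0.20 to 0.21 around 0.00 (limma adjusted p = 0.993).

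Dnmt3l, the cofactor without catalytic activity, had the fewest reads of the 9. Its control values were 47.3, 24.0 and 17.4 normalised read counts and its cKO values 24.8, 22.5 and 9.69, which came from 64, 22, 16, 22, 28 and 8 recovered reads in the same order. Each of these read numbers is even, as were 78.1% of recovered counts of 1 to 20, so they may not be sums of single reads. Control replicate 1 was high and cKO replicate 3 low, and the groups overlapped. The log2 fold change was -0.57 with a 95% interval of -1.53 to 0.40 (limma adjusted p = 0.423), which holds 0 as well as the value of Dnmt1. Leaving out control replicate 1 or cKO replicate 3 gave -0.19, leaving out control replicate 3 gave -0.86, and none of the 6 fits without a library called the gene.

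None of the 3 TET genes was called in limma, edgeR or DESeq2 with the deposited or the tools' own scaling. Tet1 had 865, 715 and 751 normalised read counts in control replicates 1 to 3, and its cKO values were 775, 887 and 868. For Tet2 the controls gave 1156, 936 and 1006 and the cKO libraries 995, 1165 and 1237. The groups of both genes overlapped, with log2 fold changes of 0.12 for Tet1 (95% interval -0.12 to 0.36, limma adjusted p = 0.504) and 0.13 for Tet2 (-0.11 to 0.37, limma adjusted p = 0.455). Tet3, the TET gene with the most RNA, had control values of 7035, 6917 and 6243 and cKO values of 6699, 6777 and 6858. Its cKO values were packed within the control range, with a log2 fold change of 0.01 (95% interval -0.18 to 0.20, limma adjusted p = 0.945).

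**Figure D1:**
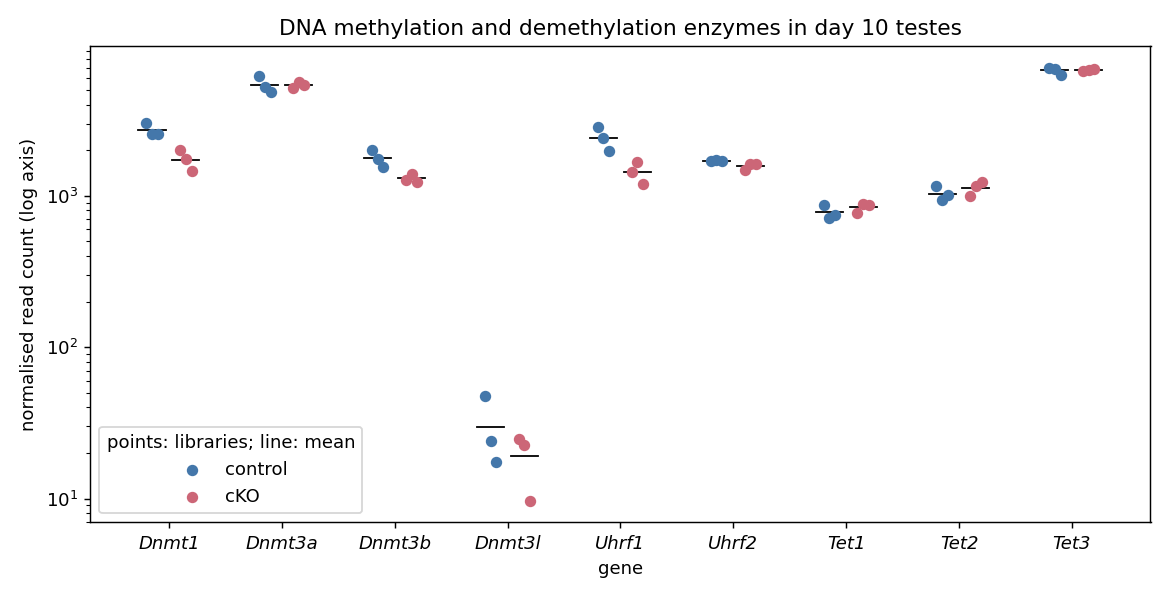
Normalised read counts (log axis) of the 9 genes in each library, with points for the 3 control and 3 cKO libraries and a line at the group mean. Dnmt1, Uhrf1, Dnmt3b and Uhrf2 have no overlap between groups, the Tet1, Tet2, Tet3 and Dnmt3a groups overlap, and Dnmt3l reaches 47.3 at most.

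Altogether 3 of 9 genes were called lower and 0 higher (0 higher also in edgeR, in DESeq2 and at an unadjusted p under 0.05), where 10.4% of all genes tested were lower and 9.63% higher. The groups did not overlap for 4 of 9, against 36.7% of all genes. The median log2 fold change of the 9 was -0.11, against 0.01 for all genes. The 3 calls held in limma, edgeR and DESeq2, under each pseudocount, without the filter, and when any 1 library was left out (highest adjusted p 0.00384 for Dnmt1, 0.0026 for Uhrf1 and 0.039 for Dnmt3b). How far the genes moved depended on the scale they were set against. Scaled to the Sertoli cell markers, which moved the median of all genes to -0.45, Dnmt1 was at -1.12, Uhrf1 at -1.22 and Dnmt3b at -0.90. Under that scaling Dnmt3a (-0.47, adjusted p = 0.0204), Uhrf2 (-0.58, adjusted p = 0.00685) and Tet3 (-0.46, adjusted p = 0.0166) were also called lower in limma, at values near the shifted median.

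Proliferation genes fell with the copying machinery. Of 12 genes of S phase and proliferation 9 were lower and 0 higher, against 10.4% and 9.63% of all genes tested. With 1 library left out 6 to 9 of the 12 were lower. The 12 genes had a median log2 fold change of -0.43. Their summed level was 34237 to 41735 normalised read counts in control and 25188 to 28246 in cKO. Rrm2, a ribonucleotide reductase subunit gene (-1.16), Top2a, a topoisomerase gene (-0.86), Mki67, the Ki-67 proliferation marker gene (-0.80), and Mcm5, a replicative helicase subunit gene (-0.71), fell most. The mitotic kinase gene Cdk1 was at 0.18 (limma adjusted p = 0.199), Ccna2 at -0.20 (limma adjusted p = 0.118) and Tyms at -0.02 (limma adjusted p = 0.92). None of these was called. With each library scaled to the median ratio of this list, a setting chosen after the data were seen, the calls of all 3 genes ended. The list was itself lower in cKO, so this scaling raised the fold change of every gene by construction. Dnmt1 was then at -0.20 (adjusted p = 0.194), Uhrf1 at -0.30 (adjusted p = 0.0546) and Dnmt3b at 0.02 (adjusted p = 0.918) in limma, while the median of all genes moved to 0.45. Dnmt3a (0.45), Uhrf2 (0.34), Tet1 (0.57), Tet2 (0.58) and Tet3 (0.46) were called higher under this scaling, Dnmt3a and Tet3 at values near the shifted median. The part of cell number, cell cycle or germ cell stage in the 3 falls was not tested.

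**Figure D2:**
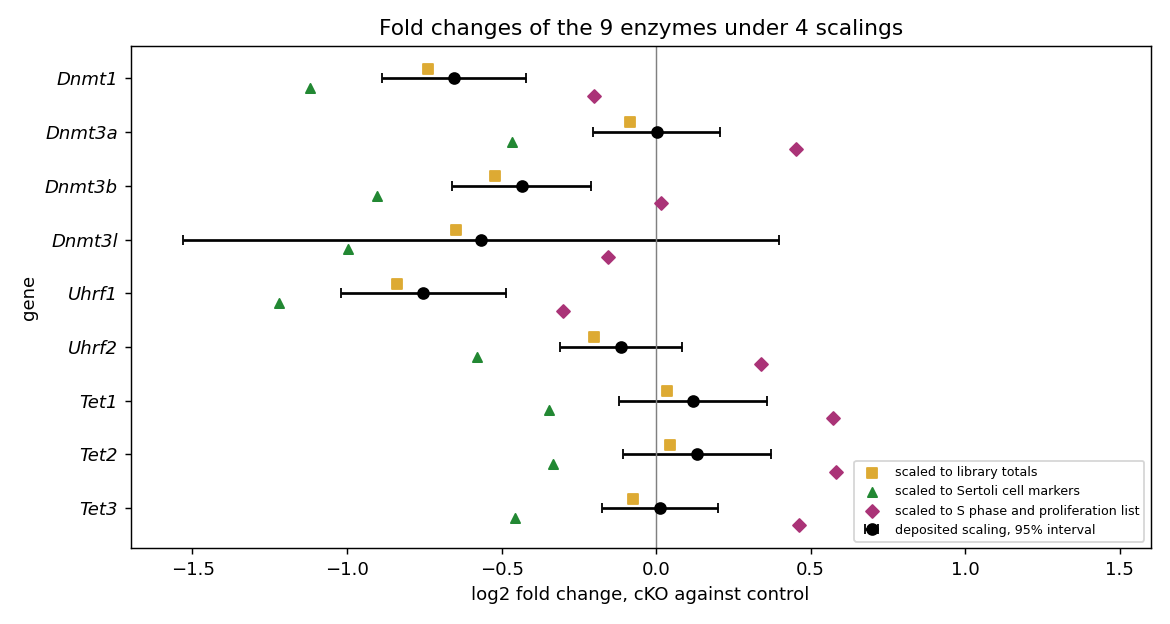
Log2 fold change of each gene in cKO against control with the deposited scaling (circles, with 95% intervals) and under 3 other scalings (squares, triangles, diamonds). Dnmt1, Uhrf1 and Dnmt3b have intervals below 0 on the deposited scale, the Sertoli scaling shifts all 9 to the left, and the S phase scaling shifts all 9 to the right.

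Ratios between 2 genes of the same library do not depend on how that library was scaled. The log2 ratios tested had 2 added to both values, so for Dnmt3l, with few reads, this holds only roughly. The ratios printed for single libraries are without that addition. Dnmt3b stood at 0.326, 0.334 and 0.321 of Dnmt3a in control replicates 1 to 3 and at 0.246, 0.249 and 0.23 in cKO replicates 1 to 3. The spread within each group was narrow and the groups did not overlap, with a difference of -0.44 in the log2 ratio (exact permutation test, 2-sided, p = 0.1, adjusted p = 0.3). For 3 libraries against 3 the smallest p this test can give is 0.1, so none of the 6 ratios tested could pass. Uhrf2 stood at 0.601, 0.707 and 0.856 of Uhrf1 in control libraries, and at 1.03, 0.98 and 1.36 of it in cKO libraries. Uhrf1 thus had more reads than its paralogue in every control library and fewer in 2 of 3 cKO libraries (log2 difference 0.64, exact permutation p = 0.1, adjusted p = 0.3).

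The control ratios of Uhrf1 to Dnmt1 were 0.94, 0.946 and 0.776 and the cKO ratios 0.717, 0.958 and 0.816, with overlapping groups (log2 difference -0.10, exact permutation p = 0.7, adjusted p = 0.84). That difference was 0.00 without cKO replicate 1, -0.05 without control replicate 1 or 2, -0.21 without cKO replicate 2 and -0.19 without control replicate 3. The ratio of Tet1 to Tet2 spanned 0.746 to 0.764 in the controls and 0.701 to 0.779 in cKO (log2 difference -0.01, exact permutation p = 0.9, adjusted p = 0.9; 0.03 without cKO replicate 3). Tet3 stood at 6.09 to 7.39 times Tet2 in the controls and at 5.54 to 6.74 times in cKO (log2 difference -0.12, exact permutation p = 0.4, adjusted p = 0.75), a difference that was -0.03 without control replicate 2, -0.06 without cKO replicate 3 and -0.20 without cKO replicate 1. The ratio of Dnmt3l to Dnmt3a also overlapped (log2 difference -0.57, exact permutation p = 0.5, adjusted p = 0.75). It was -0.82 to -0.19 over the fits that left out 1 library.

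**Figure D3:**
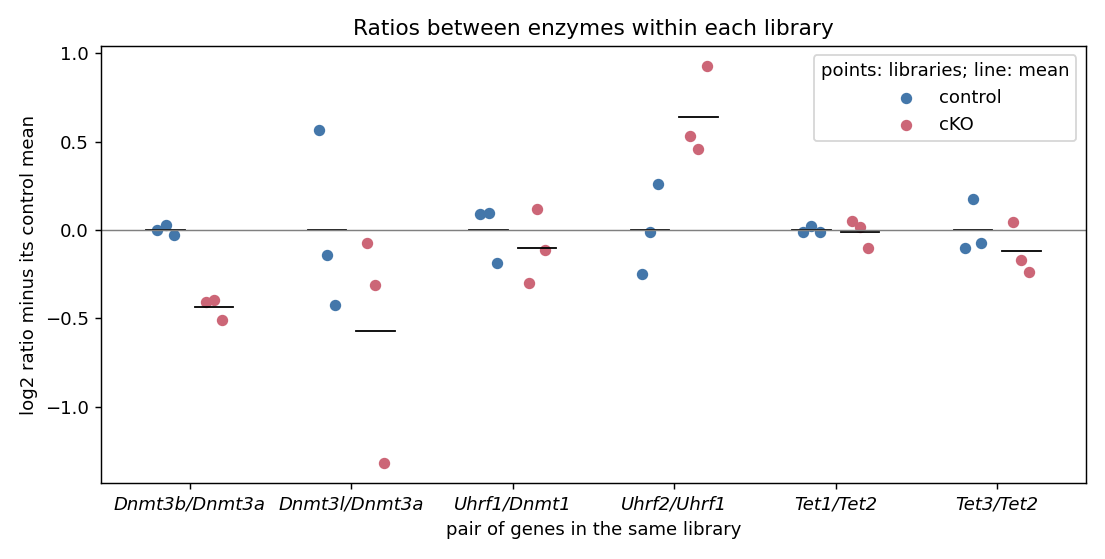
Log2 ratios of 6 pairs of genes in each library, each set to 0 at its control mean, with points for libraries and lines for group means. The cKO libraries lie apart from the controls for Dnmt3b/Dnmt3a (difference -0.44) and Uhrf2/Uhrf1 (0.64) and overlap them for the other 4 pairs.

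To compare levels between genes, normalised read counts were divided by the exon length of GENCODE M21. In control testes Uhrf1 had the highest level, 659 ± 116 per kb, followed by Tet3 (573 ± 36.4), Dnmt3a (546 ± 68.0), Uhrf2 (483 ± 1.82), Dnmt1 (431 ± 42.0) and Dnmt3b (409 ± 53.2; SD, n = 3 throughout). Neighbours in this order differed by less than the larger of their SDs, apart from Uhrf2 and Dnmt1. A wide step separated them from Tet2 (112 ± 12.2), Tet1 (54.1 ± 5.42) and Dnmt3l (11.1 ± 5.89). In cKO the order began with Tet3 (577 ± 6.76), Dnmt3a (544 ± 21.4) and Uhrf2 (447 ± 24.2), and Uhrf1 (391 ± 64.4), Dnmt3b (301 ± 19.1) and Dnmt1 (275 ± 42.6) came after them (SD, n = 3 throughout). Uhrf2 and Uhrf1, and Dnmt3b and Dnmt1, differed there by less than the larger SD. The control order was the same with the length of the longest transcript.

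Within the DNMT family the makeup of the RNA differed between groups, though no test was run on the shares. Shares add up to the whole, so falls of Dnmt1 and Dnmt3b raise the share of Dnmt3a. The Dnmt3a level itself was at 99.7% of control. Per kb, Dnmt3a made up 39.0% ± 0.324 of the summed DNMT level in control libraries (SD, n = 3) and 48.3% ± 2.66 in cKO libraries (SD, n = 3), and its lowest cKO library, 45.7%, was above its highest control, 39.3%. The share of Dnmt1 was 30.9% ± 1.27 in control libraries and 24.4% ± 3.03 in cKO libraries, and that of Dnmt3b 29.3% ± 0.80 and 26.7% ± 0.852 (SD, n = 3 per group). Dnmt3l held 0.768% and 0.623%. In the TET family the shares overlapped: Tet3 held 77.5% ± 1.76 in control and 76.1% ± 1.57 in cKO, Tet2 15.2% ± 1.25 and 16.2% ± 1.29, and Tet1 7.3% ± 0.512 and 7.72% ± 0.352 (SD, n = 3 per group).

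The genes whose 6 centred log2 values lay nearest to those of Uhrf1 were Lig1, the replicative DNA ligase gene (distance 0.185), and the tubulin gene Tuba3a (0.19), which has a near-identical copy and an uncertain value. Nearest to Dnmt1 were Vill (distance 0.0988) and Zswim5 (0.12), and nearest to Dnmt3b were Ftsj3, a ribosomal RNA processing gene (0.0674), and the transporter gene Slc4a11 (0.0725). These distances over 6 libraries are descriptions, and they hold the difference between the groups as well as that between replicates.

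Among partners of maintenance methylation 4 of 8 genes were lower and 0 higher, against 10.4% and 9.63% of all genes tested. The number lower was 3 with edgeR, 5 with DESeq2, and 3 to 5 with 1 library left out. The 8 genes had a median log2 fold change of -0.36. Lig1 fell from 2373 ± 264 to 1359 ± 227 normalised read counts (SD, n = 3 per group; log2 fold change -0.81, SE 0.118, limma adjusted p = 6.76e-05). Hells, the chromatin remodeller that opens DNA to methyltransferases, fell from 5854 ± 1219 to 3600 ± 298 (SD, n = 3 per group; log2 fold change -0.68, SE 0.117, limma adjusted p = 0.000379). Dmap1, which encodes a DNMT1-associated protein, had a log2 fold change of -0.46. Pcna, the replication clamp that binds DNMT1, was called only narrowly (-0.27, limma adjusted p = 0.0499), and the call ended with edgeR (adjusted p = 0.0503), with pseudocount 0.5 (0.0521), without the filter (0.0571), with the replicate block (0.0658), and when control replicate 1 or 3 (0.138 and 0.081) or any cKO library was left out (0.143, 0.0787 and 0.186 for replicates 1 to 3). Usp7, Cdca7, Cdca7l and Dppa3 were not called.

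Among partners of de novo methylation 2 of 12 were lower and 0 higher, where 10.4% of all genes were lower. The median was -0.21, and the number lower was 4 without control replicate 3. Tex15, a germ cell gene of piRNA-directed methylation and meiotic repair, fell from 9197 ± 315 to 4007 ± 593 normalised read counts (SD, n = 3 per group; log2 fold change -1.21, SE 0.103, limma adjusted p = 1.14e-07). Setdb1, a histone H3 lysine methyltransferase gene, had a log2 fold change of -0.51 (limma adjusted p = 0.00111). The other 10, among them the histone methyltransferase genes Nsd1, Setd2, Ehmt1 and Ehmt2 and the corepressor gene Trim28, were not called.

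Of 12 genes around TET oxidation and base removal 2 were higher and 1 lower, against 9.63% and 10.4% of all genes, and 9 were not called. The median was 0.02. Mbd4, a glycosylase that removes deaminated methylcytosine, fell from 613 ± 74.9 to 385 ± 20.3 normalised read counts (SD, n = 3 per group; log2 fold change -0.66, SE 0.131, limma adjusted p = 0.0014). Tdg, the glycosylase that excises the products of TET, was not called (0.03, limma adjusted p = 0.871). Idh2, a mitochondrial enzyme gene of 2-oxoglutarate metabolism (0.45, limma adjusted p = 0.00228), and Cxxc5, a CpG-binding protein gene (0.44, limma adjusted p = 0.0025), were higher. Under the Sertoli scaling, which moved the median of all genes to -0.45, they were at -0.02 and -0.03. The number higher was 4 without control replicate 1, and the number lower was 2 without control replicate 2.

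In the methyl donor cycle, which supplies S-adenosylmethionine, 0 of 11 genes were lower, against 10.4% of all genes tested. The log2 fold changes of the 11 had a median of 0.05. Mat2a and Mat2b, genes of the enzyme that makes S-adenosylmethionine, were at 0.08 (limma adjusted p = 0.643) and 0.05 (limma adjusted p = 0.764), and Ahcy, which clears the product of methyl transfer, was at 0.12 (limma adjusted p = 0.423). Of 7 genes listed as readers of methylated DNA or relatives of readers, among them Mbd1, Mbd2 and Mbd3, limma called 0 in either direction. Over all genes tested 10.4% were lower and 9.63% higher. The median of the 7 was 0.09. Where a pathway list had 0 genes in a direction by limma, edgeR and DESeq2 also called 0, and at an unadjusted limma p under 0.05 the exception was 1 reader that was higher, Mbd2 (0.21, adjusted p = 0.0971).

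**Figure D4:**
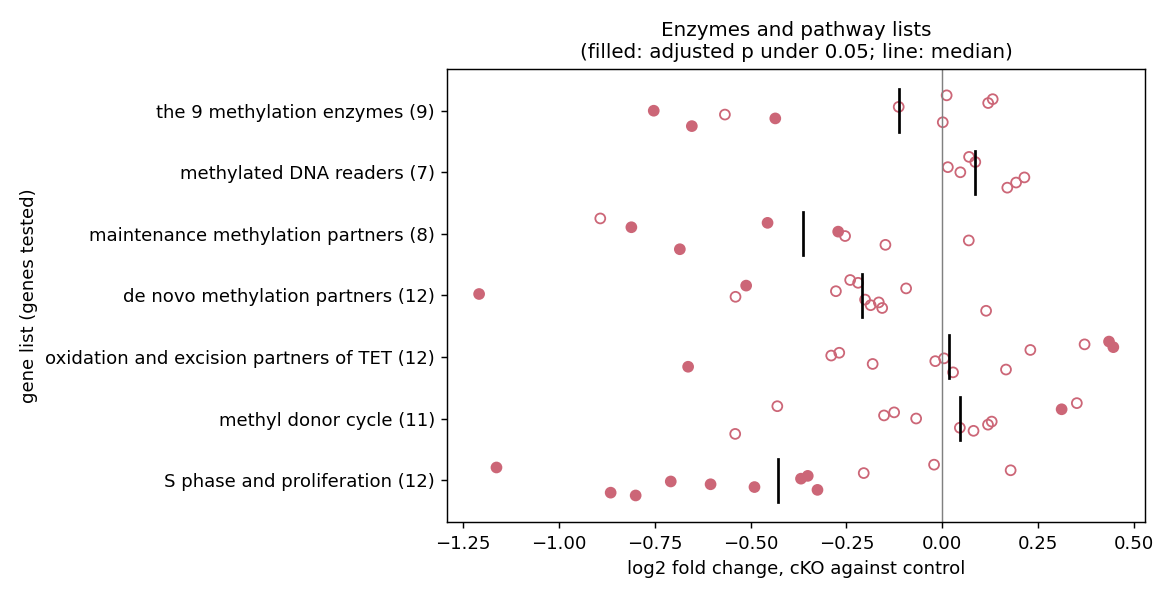
Log2 fold change of every tested gene of the 9 enzymes and of 6 gene lists, with filled circles for genes at a limma adjusted p under 0.05 and a line at each median. Filled circles lie on the left for the maintenance partners (4 of 8) and the S phase list (9 of 12), on both sides for the partners of TET, and are missing for the methylated DNA readers.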

How the data were processed

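RNA of 6 libraries was analysed, grouped by the sample titles. Per the submitters' processing notes, StringTie 1.3.1 and RSEM were used, in roles not stated. Which aligner, genome build or strand setting applied is not given in the sources used here. A single table was deposited by the authors, named for raw counts, but its values are a normalised signal: in each column 100% of values were whole multiples of 1 step (tolerance 1e-06), and the inverse of the step, 0.825 to 1.35, equalled the recomputed median-of-ratios size factor. Among recovered counts of 1 to 20, 78.1% were even, so low counts were not sums of single reads.

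The values were tested with limma 3.58.1 (intensity trend) on log2(value + 2), 2-sided, after edgeR's filterByExpr (minimum count 10), with Benjamini-Hochberg adjustment over 17570 genes, 4649 being filtered out. edgeR 4.0.16 (quasi-likelihood; 1575 genes higher, 1857 lower) and DESeq2 1.42.0 were run on the recovered reads as alternatives. Others were the pseudocount, no filter, library totals, Sertoli markers, the replicate number and leaving out each library. The scripts were tested on simulated data. Scaling to a list used the median ratio of its genes. Nothing states that libraries came from separate animals, so p-values cover only the spread among these libraries, and that may be technical. No library was a duplicate: chi-square over degrees of freedom for any pair was at least 10.2.

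The 9 genes and all lists were chosen with earlier results of these data known. Genes named from a list are those called, at most 4 a direction, beside some not called, which were picked after their values were seen. The lists were maintenance partners, de novo partners, TET partners, methyl donor cycle, methylated DNA readers, S phase genes and markers of 9 cell types. All symbols matched the table. Higher calls in the methyl donor list are not reported here.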

Additional observations from a re-analysis of the deposited data

How the results depend on the processing

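With the deposited scaling 1692 genes were higher and 1829 lower, 3521 in all, 51.9% of them lower. With library totals 807 were higher and 2495 lower (75.6% lower), and scaled to the Sertoli markers 33 were higher and 7827 lower (99.6% lower), 7860 in all. Over all genes the median was 0.01 as deposited, -0.08 with totals and -0.45 with the Sertoli markers. When 1 library was left out, between 2213 and 3524 genes were called, 918 to 1747 higher and 1281 to 1777 lower. The highest number was reached without control replicate 3. The number called was 2263 without cKO replicate 1 and 2213 without cKO replicate 3, and 918, 1008 and 932 were higher without cKO replicates 1, 2 and 3.

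Of the 9 enzymes 6 were lower under the Sertoli scaling. Under the S phase scaling 0 were lower and 5 higher. In each of the other 13 settings the same 3 genes, Dnmt1, Uhrf1 and Dnmt3b, were lower. Dnmt3a turned to -0.0087 with edgeR, -0.0080 with DESeq2, -0.084 with library totals and -0.47 under the Sertoli scaling, and ranged from -0.078 (control replicate 3 left out) to 0.097 (control replicate 1 left out). Tet3 turned to -0.074 with library totals and -0.46 under the Sertoli scaling, and ranged from -0.042 (control replicate 3 left out) to 0.045 (control replicate 1 left out). Tet1 was at -0.35 and Tet2 at -0.34 under the Sertoli scaling. Under the S phase scaling Dnmt3b was at 0.016 and Uhrf2 at 0.34. Of the list genes called and named, Idh2 (-0.021) and Cxxc5 (-0.032) turned under the Sertoli scaling. Settings were not run for list genes named as not called. The log2 ratio of Uhrf1 to Dnmt1 ranged from -0.21 to 0.0011 and that of Tet1 to Tet2 from -0.043 to 0.033 with 1 library left out.

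Under the Sertoli scaling the numbers lower were 2 of the methylated DNA readers, 7 maintenance partners, 11 de novo partners, 7 TET partners and 5 methyl donor genes, and 0 TET partners were higher. With library totals 2 TET partners were lower. With 1 library left out, 2 to 4 de novo partners were lower, and 2 to 4 TET partners were higher and 1 to 2 lower. Other than the library scalings, whose construction shifts every gene, the cause of these changes was not tested.

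The replicate numbers did not pair the libraries: deviations from the group means correlated at -0.04, -0.00 and 0.06 for numbers 1, 2 and 3, and not every library correlated best with its own number. With the replicate block 1535 genes were higher and 1771 lower, 3306 in all, and the log2 fold changes of Dnmt1, Uhrf1 and Dnmt3b were called at adjusted p = 0.000242, 0.000134 and 0.00838. Dnmt3l had 8 to 64 reads per library. The part of depth in its wide interval was not tested.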
